A study of Mus musculus with 6 samples.

Results

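The cytosolic ribosomal protein genes were described here in DP42 cells, a mouse multiple myeloma line, cultured in 3 ways. Members were the genes whose symbol on the array begins with Rpl or Rps and a digit, together with Rplp0, Rplp1, Rplp2 and Rpsa, and without the Rps6k kinases and symbols marked -ps. Only probe sets annotated to a single gene were used, and each gene was represented by its brightest probe set over the 6 arrays. The rule gave 69 of the 22180 genes measured, of which 42 carried large subunit symbols and 27 small subunit symbols. They covered 58 of the 80 standard proteins of the cytosolic ribosome, 35 of 47 in the large and 23 of 33 in the small subunit. The other 11 members were paralogs, retrocopies or similarly named genes (Rpl3l, Rpl6l, Rpl7l1, Rpl10l, Rpl22l1, Rpl32l, Rpl39l, Rps4l, Rps23rg1 and Rps27l) and Rps19bp1, whose product binds a ribosomal protein. Of the standard proteins, 21 were represented by no single-gene probe set, 12 of which appeared on probe sets shared by several genes.

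Total RNA came from DP42 cells grown for 24 h with neutrophils, which the labels also call IMC, with B cells, or alone, with 2 arrays per culture. The B cells served the study as a co-culture control, and flow sorting separated myeloma cells from their partners before lysis in Trizol. No genetic modification or drug is given for any group. Co-culture samples are titled by the partner cell but carry DP42 in the cell type field, and they were taken as DP42 RNA. The labels do not say whether the paired arrays of a culture came from separate cultures, so the p-values rest on a spread that may be technical. With 2 arrays per group, the number of arrays limits the precision of every value.

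A cytosolic ribosome is built from ribosomal RNA and a fixed set of proteins, usually encoded by a single active gene each. Most of these proteins are needed in equal numbers. The mRNAs of ribosomal proteins are among the most abundant of a growing cell. Most start with an unbroken run of pyrimidines, the terminal oligopyrimidine (TOP) tract, through which the kinase complex mTORC1 and the RNA-binding protein Larp1 set how strongly they are translated. Plasma cells and the myelomas derived from them secrete large amounts of immunoglobulin and depend on a high capacity for protein synthesis. The mouse genome holds many processed pseudogenes of these genes, so a probe may match several near-identical copies, and a signal is given here as that of the probe set.

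The start of the gene is shown for 10 members, chosen after values were seen: 3 bright members with a pyrimidine run at the start (Rps6, Rpl28 and Rpl35), Rplp2 of the P stalk, and 6 members with large differences between cultures. Each line gives 15 bases before and 15 bases from the annotated start in RefSeq, build GRCm38.p6, read 5′ to 3′ on the gene's strand, with the longest run of C or T in capitals.
Rps6: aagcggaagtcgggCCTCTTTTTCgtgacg
Rpl28: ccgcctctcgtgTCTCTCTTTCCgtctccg
Rpl35: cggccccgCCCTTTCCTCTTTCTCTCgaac
Rps27: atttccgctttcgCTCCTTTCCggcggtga
Rplp2: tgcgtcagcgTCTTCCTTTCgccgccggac
Rps18: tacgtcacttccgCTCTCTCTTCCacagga
Rps15: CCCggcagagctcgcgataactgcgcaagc
Rps13: gagagcaaacgtcggtgagtggcgtcaCTT
Rpl39l: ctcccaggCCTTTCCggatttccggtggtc
Rpl22l1: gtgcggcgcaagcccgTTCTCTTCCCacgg
These windows lie at chr4:86857353-86857382 for Rps6, chr7:4792950-4792979 for Rpl28, chr2:39005117-39005146 for Rpl35, chr3:90213634-90213663 for Rps27, chr7:141447636-141447665 for Rplp2 and chr17:33955651-33955680 for Rps18. The Rps15 window is chr10:80292416-80292445, that of Rps13 chr7:116334176-116334205, that of Rpl39l chr16:10170213-10170242 and that of Rpl22l1 chr3:28805493-28805522.

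Start windows were matched for 54 of the 69 members, and the 10 shown hold pyrimidine starts more often than these do. A C at the annotated start followed by at least 4 bases of C or T was found in 11 of the 54, or 20.4%, against 3.01% of 27025 genes in the same table. A run of at least 7 C or T bases anywhere in the 30 bases was found in 29, or 53.7%, against 21.3% of all genes. In the 300 bases around the start, CCGGAAG on either strand, the core letters of an ETS factor motif, occurred in 23 members, or 42.6%, against 9.93% of genes. TATAAA on either strand occurred in 6, or 11.1%, against 15.7%. A match describes the letters and is no evidence of use, and the annotated start can lie some bases from the start used in these cells.

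**Figure D1:**
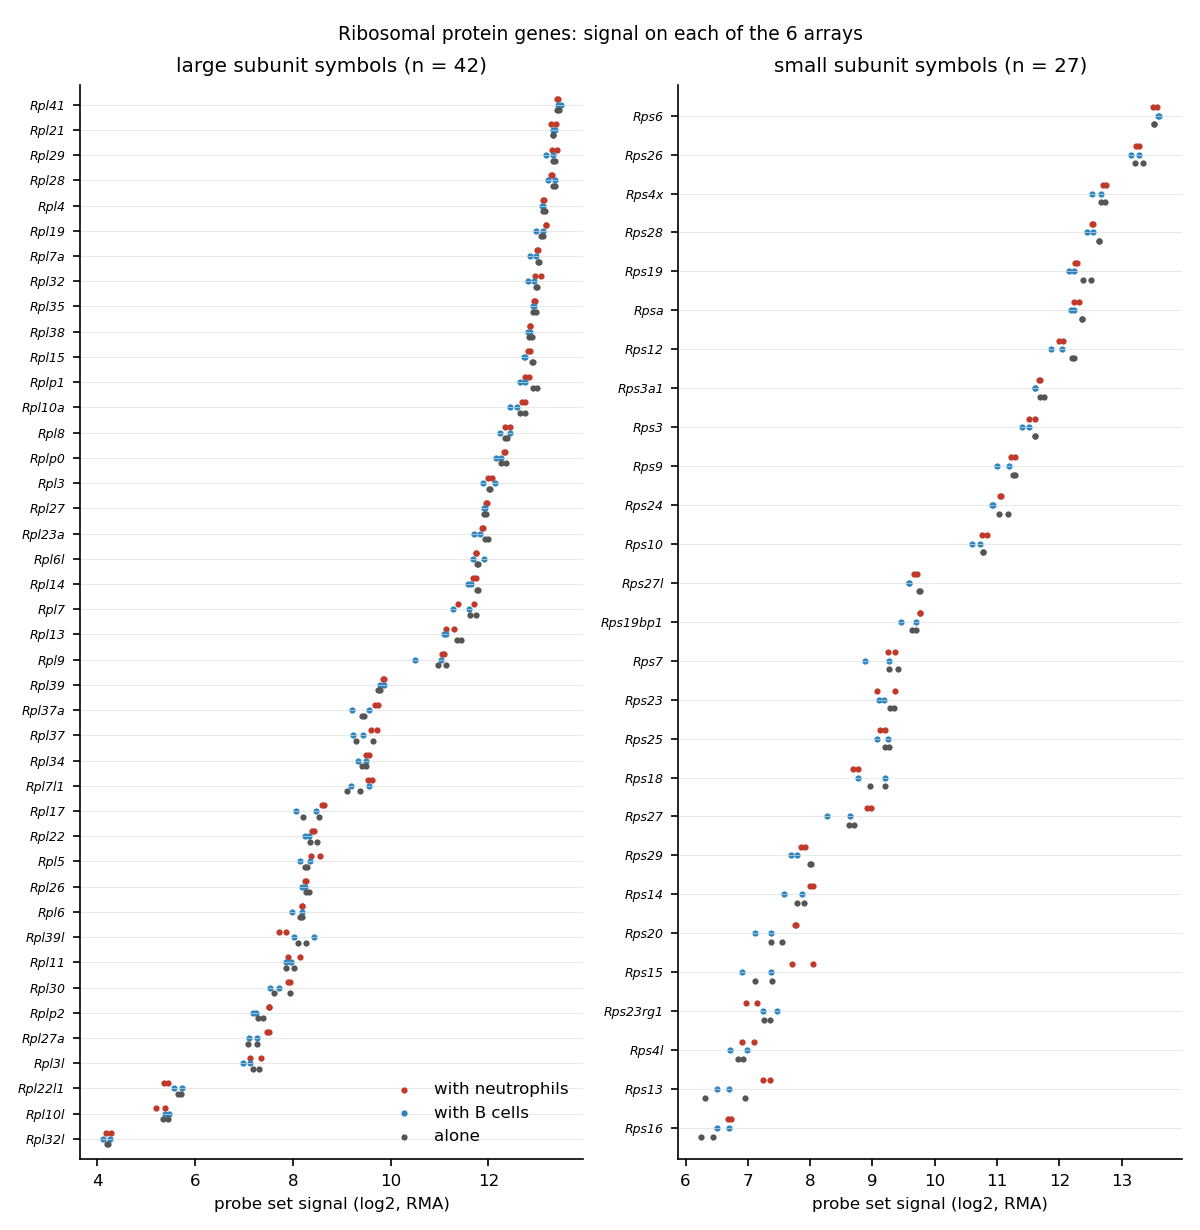
Signal of each of the 69 ribosomal protein genes (rows) on each of the 6 arrays, in log2 units, with large subunit symbols on the left and small subunit symbols on the right, ordered by mean. Means run between 4.21 and 13.55, and for most genes the points of the 3 cultures lie close together.

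The ribosomal protein genes were among the brightest on the arrays. Their mean signal over the 6 arrays ran between 4.21 and 13.55 on the log2 scale, with a median of 10.75, against a median of 7.30 over all genes. A mean of 11 or more was reached by 33 members (22 large and 11 small subunit), or 47.8%, against 4.21% of all genes, and 18 members were in the brightest 100 genes. On every array, 57 members lay at or above the median gene, and 3 lay below the lower quartile. Signals of different probe sets do not rank amounts of RNA, since probes differ in how they bind.

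Rps6, the small subunit protein that S6 kinases phosphorylate, had the brightest probe set, with signals of 13.57 and 13.50 in neutrophil co-cultures, 13.58 and 13.60 in B-cell co-cultures and 13.52 and 13.52 alone. The B-cell arrays were the highest and the other 4 lay close below them. Rpl41, which encodes the smallest protein of the ribosome, had 13.43 and 13.40 in neutrophil co-cultures, 13.48 and 13.43 in B-cell co-cultures and 13.44 and 13.40 alone. Rpl21, of the large subunit, had 13.29 and 13.38 in neutrophil co-cultures, 13.32 and 13.36 in B-cell co-cultures and 13.33 and 13.31 alone. The difference of largest size among these 3 genes was 0.07, for Rps6 in B-cell co-culture against culture alone. All 3 lie near the upper end of the array's scale, where differences can be compressed, which was not tested here.

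The dimmest members all carry names of copies or paralogs. Rpl32l had 4.19 and 4.29 in neutrophil co-cultures, 4.11 and 4.26 in B-cell co-cultures and 4.23 and 4.19 alone. Rpl10l, a retrogene used in male germ cells in place of the X-linked Rpl10, had 5.21 and 5.39 in neutrophil co-cultures, 5.38 and 5.46 in B-cell co-cultures and 5.44 and 5.35 alone. Rpl22l1, the paralog of Rpl22, had 5.44 and 5.36 in neutrophil co-cultures, 5.57 and 5.74 in B-cell co-cultures and 5.72 and 5.66 alone, so that both neutrophil arrays lay below the other 4.

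Neutrophil co-culture was first set against B-cell co-culture, which asks what neutrophils add to the presence of another blood cell. No ribosomal protein gene passed the test: 0 of 69 had an adjusted p below 0.05 in either direction (limma on all 6 arrays, two-sided, Benjamini-Hochberg over all genes), where 0.0316% of all genes were higher and 0.018% lower. At an unadjusted p below 0.05, 9 members were higher and 3 lower, against 8.1% and 12.0% of all genes, and limma with a trended, robust prior also called 0. The differences were small and mostly above 0. Of the 69, 60 had a positive difference, against 51.7% of all genes, and the median was 0.10 on the log2 scale, against 0.01 over all genes. That median was 0.168 after median centring, 0.0264 after quantile normalisation, 0.00683 with the receptor covariate described below, 0.149 without B-cell replicate 1 and 0.0665 without B-cell replicate 2. In 38 members, or 55.1%, both neutrophil arrays lay above both B-cell arrays, against 30.0% of all genes, and in 6 both lay below, against 26.7%.

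Against culture alone, neutrophil co-culture also left 0 of 69 members past the threshold, where 0.131% of all genes were higher and 1.36% lower by the same limma test. At an unadjusted p below 0.05, 7 members were higher and 3 lower, against 5.97% and 11.7% of all genes. The members split evenly in direction. Of the 69, 35 had a positive difference, against 54.4% of all genes, with a median of 0.0036, against 0.0214 over all genes, and the sign of that median changed with the scaling (0.0424 after median centring, -0.0306 after quantile normalisation). Both neutrophil arrays lay above both arrays of cells alone in 16 members and below them in 19, where the shares over all genes were 35.6% and 27.4%.

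B-cell co-culture against culture alone likewise gave 0 calls among the members, and 0.0% of all genes were called in either direction. At an unadjusted p below 0.05, 0 members were higher and 5 lower (Rpl13, Rplp1, Rps12, Rps19 and Rps29), against 1.61% and 2.3% of all genes. Positive differences were found in 11 of 69 members, against 49.5% of all genes, and the median was -0.10, against -0.0015 over all genes. The median was -0.161 without B-cell replicate 1 and -0.058 without B-cell replicate 2. Both B-cell arrays lay below both arrays of cells alone in 28 members and above them in 3, where 13.5% of all genes did so in each direction. The comparisons share arrays, since each culture enters 2 of them, so their medians are not independent of each other.

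The B-cell arrays differed from each other more than those of the other cultures did. The median standard deviation of a member was 0.04 in neutrophil co-cultures, 0.10 in B-cell co-cultures and 0.05 alone (n = 2 arrays each). In 45 of 69 members B-cell replicate 1 was the higher, by a median of 0.09, which is close to the median differences above. The mean over all 69 members was 10.26 and 10.27 in neutrophil co-cultures, 10.19 and 10.11 in B-cell co-cultures and 10.25 and 10.23 alone. Without B-cell replicate 1, 14 members passed the threshold between the co-cultures, 10 higher and 4 lower, but so did 11.7% of all genes as higher and 12.8% as lower, so the 14 of 69 lie near the share over all genes. That fit leaves a single B-cell array, whose spread is assumed to be that of the other groups, and leaving out any other array gave 0 calls among the members.

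**Figure D2:**
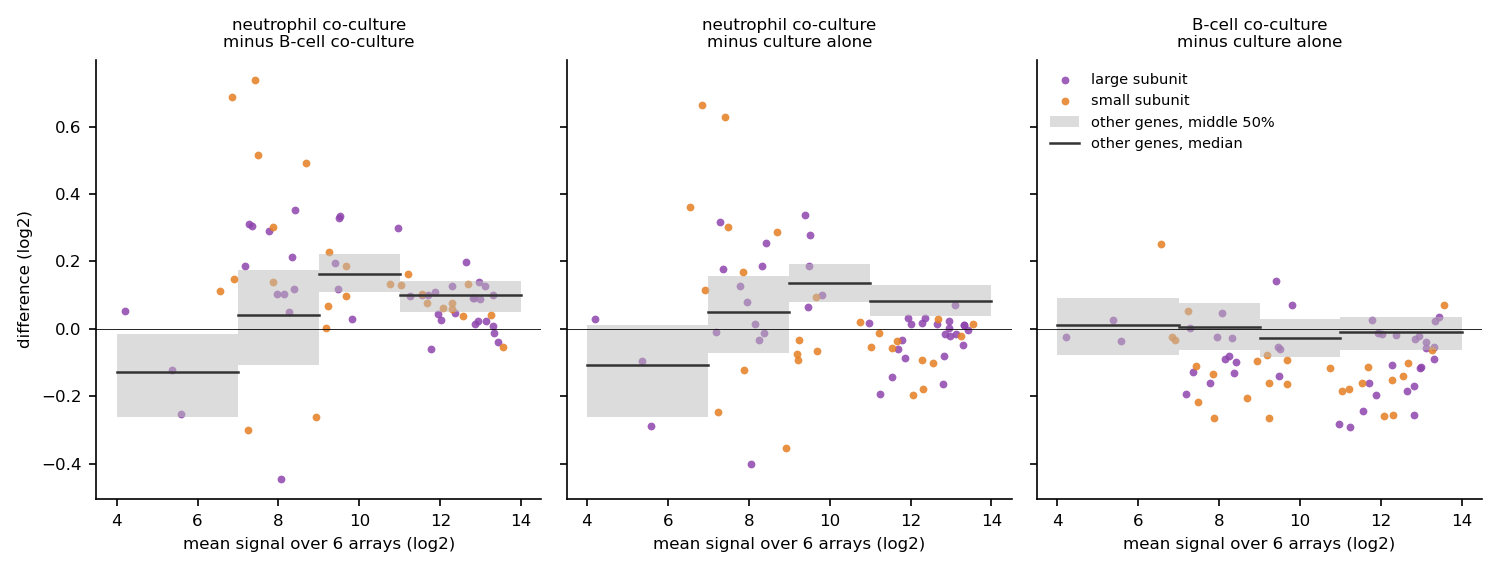
Difference between cultures (log2) against mean signal for each large subunit (purple) and small subunit (orange) gene, in the 3 comparisons. Grey boxes and black lines give the middle 50% and the median of all other genes in 4 ranges of signal; between the co-cultures the median of other genes is lowest under 7 and highest at 9 to 11, where members and other genes both stand at 0.16.

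In both comparisons of neutrophil co-culture, the difference of a gene depended on its signal, so members were also set beside other genes of like signal, in ranges chosen after the values were seen. Between the co-cultures, the 12 members with a mean of 9 to 11 had a median difference of 0.16, as had 4626 other genes of that range. The 33 members of 11 and over had a median of 0.08, against 0.10 in 900 other genes. At 12 and over the medians were 0.06 in 23 members and 0.06 in 162 other genes. The 18 members of 7 to 9 had a median of 0.20, against 0.04 in 7100 other genes, and these hold most of the large single differences described below.

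Against culture alone, the bright members had lower differences than other bright genes, a contrast that was not tested. With neutrophils, the 33 members of 11 and over had a median difference from culture alone of -0.02, and 21 of them were negative, whereas 900 other genes had a median of 0.08 and 138 negative. With B cells, the median was -0.11 in the members and 29 of 33 were negative, against -0.01 and 501 of 900. The mean signal of the 33 members was 12.44 and 12.46 in neutrophil co-cultures, 12.40 and 12.36 in B-cell co-cultures and 12.50 and 12.48 alone. The mean of the 900 other genes was 11.65 and 11.65 in neutrophil co-cultures, 11.61 and 11.51 in B-cell co-cultures and 11.58 and 11.57 alone. The members thus stood above the other genes by 0.79 and 0.81 in neutrophil co-cultures, 0.79 and 0.85 in B-cell co-cultures and 0.92 and 0.91 alone, and both co-cultures lay below both arrays of cells alone.

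**Figure D3:**
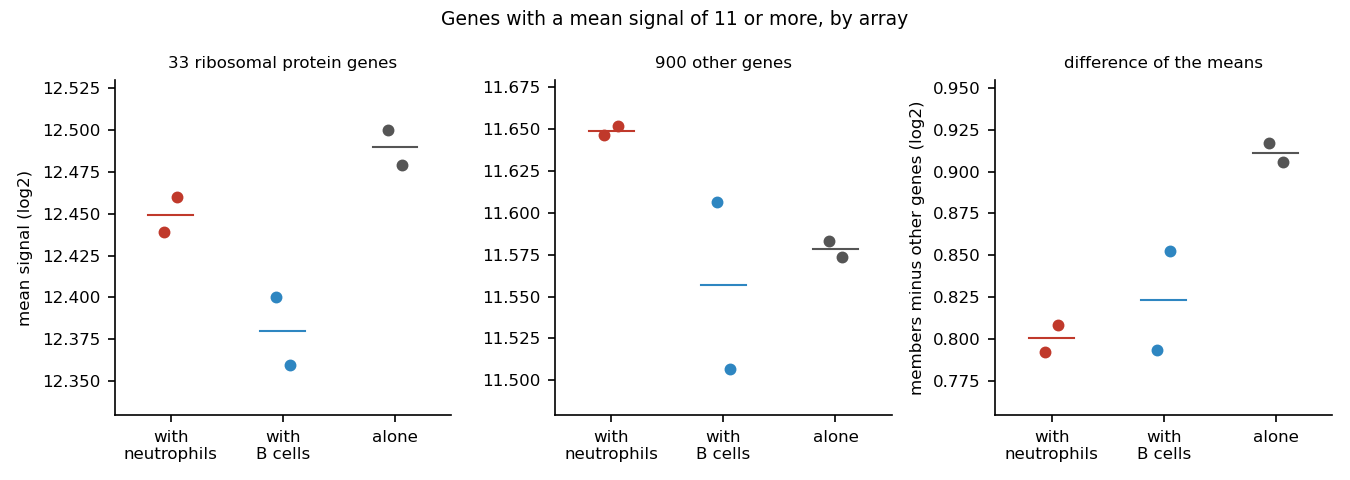
Mean signal (log2) on each array of the 33 ribosomal protein genes and of the 900 other genes with a mean of 11 or more, and the difference of these means; points are arrays, lines are group means, and the 3 vertical axes span equal lengths. The difference is 0.92 and 0.91 in cells alone and between 0.79 and 0.85 in the 4 co-culture arrays.

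Another property of the arrays was set beside this gap. The mean signal of 1394 olfactory and vomeronasal receptor genes, most of them at the dim end of the scale, was 5.13 and 5.05 in neutrophil co-cultures, 5.27 and 5.59 in B-cell co-cultures and 5.56 and 5.51 alone. B-cell replicate 2 had the highest receptor mean. Its gap of 0.85 was the largest among the co-culture arrays and lay below the 0.92 and 0.91 of cells alone. With that mean as a covariate, the gap between bright members and other bright genes for neutrophils against culture alone was -0.0024, instead of -0.10, in a fit with 2 residual degrees of freedom in which the covariate is low in both neutrophil arrays. For B cells against culture alone it was -0.06, instead of -0.10, and it was -0.06 without B-cell replicate 1 and -0.15 without B-cell replicate 2. The part of the array scale in the gap was not tested.

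RNA of the partner cells was checked with marker genes. The mean of 20 neutrophil markers was 7.19 and 7.24 in neutrophil co-cultures, 6.84 and 6.93 in B-cell co-cultures and 6.81 and 6.88 alone; 1 of the 20, the granule gene Ngp, rose against B-cell co-culture and 5 rose against culture alone. Of 11 monocyte and macrophage markers 1 rose in each of these comparisons, Ly6c2, which encodes a surface protein of monocytes, by 1.51 and 1.40, with signals of 7.14 and 7.12 in neutrophil co-cultures, 5.53 and 5.70 in B-cell co-cultures and 5.71 and 5.75 alone. No marker of the T and NK cell, erythroid and megakaryocyte or dendritic cell lists passed in any comparison. The mean of 11 B cell markers was 9.60 and 9.59 in neutrophil co-cultures, 9.60 and 9.62 in B-cell co-cultures and 9.66 and 9.59 alone. Cells alone already had this level, so these markers cannot tell B-cell RNA from DP42 RNA. The mean of 9 plasma cell markers lay between 8.81 and 8.91 on all 6 arrays, with 2 of the 9 below the lower quartile of genes on every array. The part of partner RNA in the ribosomal protein signals was not tested, and in such bulk samples a change in the mix of cells and a change of RNA per cell cannot be told apart.

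Large and small subunit genes were compared by the medians of their differences. Between neutrophil and B-cell co-culture the median difference was 0.10 in 42 large and 0.11 in 27 small subunit genes. For neutrophil co-culture against culture alone it was 0.01 in large and -0.03 in small subunit genes. For B-cell co-culture against culture alone it was -0.06 in large and -0.13 in small subunit genes. The gaps between the subunits were thus -0.01, 0.05 and 0.07. The same gap, taken between replicate 1 and replicate 2 of a culture, was -0.01 in neutrophil co-cultures, -0.04 in B-cell co-cultures and 0.01 alone. Pooled over the cultures, that is a standard deviation of 0.02 for an array, which may understate the spread of the B-cell arrays. The gaps against culture alone were larger than that pooled spread. The gap for neutrophils, however, was -0.00207 without alone replicate 1 and -0.000554 with the dimmest probe sets. The gap for B cells was 0.0329 without B-cell replicate 2. The mean of large minus small subunit signals was 0.4660 and 0.4795 in neutrophil co-cultures, 0.5205 and 0.5385 in B-cell co-cultures and 0.4831 and 0.4986 alone. Both B-cell arrays lay above the other 4, and both neutrophil arrays lay below both arrays of cells alone. By means, the gap for neutrophils against culture alone was thus negative, opposite in sign to the 0.05 by medians. The signs of the other gaps were the same by means and by medians.

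Among single genes, small subunit members had the largest positive differences with neutrophils. Rps15, a protein of the small subunit head near the decoding site, had signals of 7.71 and 8.04 in neutrophil co-cultures, 7.37 and 6.91 in B-cell co-cultures and 7.11 and 7.39 alone. Both neutrophil arrays lay above the other 4. The difference from B-cell co-culture was 0.74 ± 0.17 (SE; 95% interval 0.34 to 1.14), or 1.67-fold, with an adjusted p of 0.144 in limma, and that from culture alone was 0.63 ± 0.17 with an adjusted p of 0.131.

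Rps13, of the small subunit body, had 7.35 and 7.23 in neutrophil co-cultures, 6.51 and 6.70 in B-cell co-cultures and 6.95 and 6.31 alone. The arrays of cells alone lay far apart, and both neutrophil arrays were above all others. The difference was 0.69 ± 0.19 (SE) from B-cell co-culture, with a limma adjusted p of 0.154, and 0.66 ± 0.19 from culture alone, with an adjusted p of 0.135.

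Rps20, of the small subunit head, had 7.75 and 7.77 in neutrophil co-cultures, 7.38 and 7.11 in B-cell co-cultures and 7.36 and 7.55 alone, again with both neutrophil arrays on top. The difference from B-cell co-culture was 0.52 ± 0.12 (SE), with a limma adjusted p of 0.142. A second probe set of Rps20, slightly dimmer, had 7.90 and 7.82 in neutrophil co-cultures, 7.19 and 6.71 in B-cell co-cultures and 6.86 and 7.06 alone. With all probe sets tested it was the only one of 110 for these genes to pass in any comparison, at 0.90 ± 0.16 above culture alone and a limma adjusted p of 0.0417, where 1.32% of all probe sets passed, and its difference from B-cell co-culture was 0.91 with an adjusted p of 0.113. That share holds both directions, with 0.136% of all probe sets higher and 1.18% lower, and the Rps20 call is a higher one. A single call among 110 is too few to set against either share. Between the co-cultures 0 of 110 passed, against 0.0383% of all probe sets. The 2 probe sets of Rps20 thus went the same way, and the gene is called by the dimmer and not by the brighter.

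Rps27 had 8.98 and 8.92 in neutrophil co-cultures, 8.64 and 8.27 in B-cell co-cultures and 8.70 and 8.62 alone, a difference of 0.49 ± 0.13 (SE) from B-cell co-culture with a limma adjusted p of 0.150. Rps16, whose tail reaches the decoding site, had 6.69 and 6.74 in neutrophil co-cultures, 6.70 and 6.50 in B-cell co-cultures and 6.25 and 6.45 alone. Both co-cultures lay above cells alone in Rps16, by 0.36 ± 0.11 with neutrophils (limma adjusted p of 0.161) and by 0.25 ± 0.11 with B cells (adjusted p of 1.00). All of these probe sets are of middling or low signal for this family.

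Between the co-cultures 9 members had a negative difference, 4 of them standard proteins and 5 of the other members, while against culture alone 27 of the 34 negative members were standard. The lowest differences between the co-cultures were in Rpl39l, Rps23rg1 and Rps18. Rpl39l, the paralog of Rpl39 known from male germ cells, had 7.71 and 7.85 in neutrophil co-cultures, 8.02 and 8.44 in B-cell co-cultures and 8.26 and 8.10 alone. Both neutrophil arrays lay below the other 4. The difference was -0.44 ± 0.15 (SE) from B-cell co-culture, with a limma adjusted p of 0.188, and -0.40 ± 0.15 from culture alone, with an adjusted p of 0.218. Rps23rg1, a retrocopy of Rps23, had 7.15 and 6.98 in neutrophil co-cultures, 7.25 and 7.47 in B-cell co-cultures and 7.25 and 7.36 alone, with a difference of -0.30 ± 0.11 from B-cell co-culture. Rpl22l1 differed from culture alone by -0.29 ± 0.10, with a limma adjusted p of 0.202.

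Rps18, at the head of the small subunit, was the standard protein with the lowest difference. Its brightest probe set had 8.76 and 8.68 in neutrophil co-cultures, 8.77 and 9.20 in B-cell co-cultures and 9.20 and 8.96 alone, a difference of -0.35 ± 0.15 (SE) from culture alone with a limma adjusted p of 0.272. A second, dimmer Rps18 probe set gave 8.45 and 8.56 in neutrophil co-cultures, 8.33 and 8.26 in B-cell co-cultures and 8.27 and 8.31 alone, which is a difference of 0.22 from culture alone. The dimmest of its probe sets gave 7.106 and 7.002 in neutrophil co-cultures, 7.271 and 7.358 in B-cell co-cultures and 7.283 and 7.192 alone, a difference of -0.18 from culture alone. Of the 3 Rps18 probe sets, 2 were thus lower and 1 higher with neutrophils, and none passed.

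**Figure D4:**
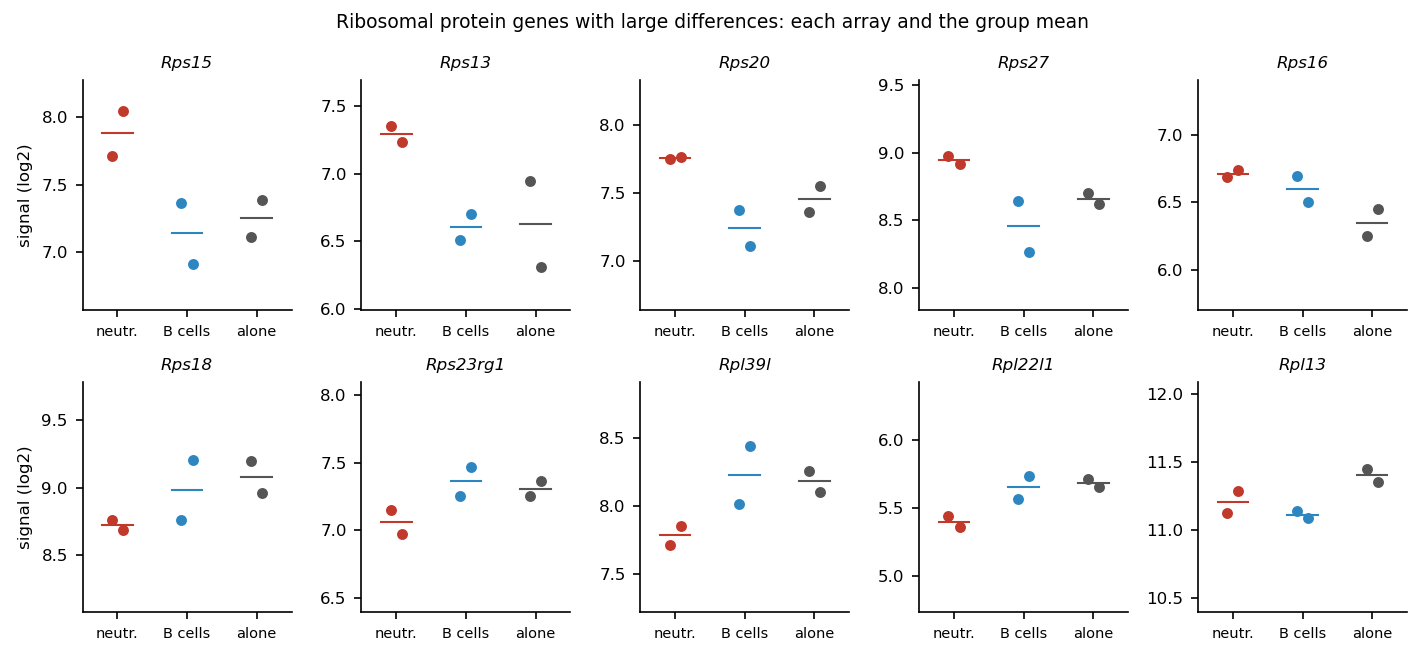
Signal (log2) on each array of 10 ribosomal protein genes with large differences; points are arrays, lines are group means, and all vertical axes span equal lengths. Both neutrophil arrays lie above the other 4 for Rps15, Rps13, Rps20 and Rps27 and below them for Rps18, Rps23rg1, Rpl39l and Rpl22l1, and none of these differences passed the threshold. For Rps18 the nearest arrays all but coincide, at 8.7641 in neutrophil replicate 1 and 8.7650 in B-cell replicate 1.

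The lowest differences of B-cell co-culture from culture alone were in Rpl13, Rpl9 and Rps7. Rpl13, a large subunit protein, had 11.13 and 11.29 in neutrophil co-cultures, 11.14 and 11.09 in B-cell co-cultures and 11.45 and 11.35 alone. Both co-cultures lay below cells alone, with differences of -0.19 ± 0.10 for neutrophils and -0.29 ± 0.10 for B cells (SE; limma adjusted p of 0.347 and 1.00). Rpl9 had 11.05 and 11.09 in neutrophil co-cultures, 11.03 and 10.51 in B-cell co-cultures and 10.96 and 11.14 alone. Rps7, one of the proteins able to bind Mdm2, had 9.25 and 9.36 in neutrophil co-cultures, 9.27 and 8.88 in B-cell co-cultures and 9.40 and 9.27 alone. In Rpl9 and Rps7 the difference rests on B-cell replicate 2, since B-cell replicate 1 lay within or at the edge of the other arrays.

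The P stalk, the arm of the large subunit that recruits elongation factors, is formed by Rplp0 with Rplp1 and Rplp2. Rplp0 had 12.34 and 12.32 in neutrophil co-cultures, 12.26 and 12.15 in B-cell co-cultures and 12.37 and 12.25 alone. Rplp1 had 12.75 and 12.83 in neutrophil co-cultures, 12.65 and 12.75 in B-cell co-cultures and 12.92 and 12.99 alone, so cells alone were on top. Rplp2 had 7.51 and 7.52 in neutrophil co-cultures, 7.18 and 7.24 in B-cell co-cultures and 7.28 and 7.39 alone, so neutrophil co-cultures were on top. The difference from B-cell co-culture was 0.13 ± 0.10, 0.09 ± 0.10 and 0.30 ± 0.09 (SE) for Rplp0, Rplp1 and Rplp2, with limma adjusted p of 0.423, 0.548 and 0.175.

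Rpl5 and Rpl11 join the 5S ribosomal RNA in a particle that, when ribosome assembly fails, binds Mdm2 and spares p53 from degradation. Rpl5 had 8.55 and 8.37 in neutrophil co-cultures, 8.35 and 8.15 in B-cell co-cultures and 8.25 and 8.29 alone. Rpl11 had 7.89 and 8.14 in neutrophil co-cultures, 7.86 and 7.96 in B-cell co-cultures and 8.02 and 7.86 alone. Their differences between the co-cultures were 0.21 ± 0.11 and 0.10 ± 0.12 (SE), with limma adjusted p of 0.294 and 0.573. Of 10 measured genes of Mdm2, p53 and p53 targets, 0 passed; Bbc3, which encodes the death-promoting protein PUMA, had the highest difference, 0.32, and Eda2r, a p53-induced receptor, the lowest, -0.17.

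Around the polypeptide exit tunnel 8 members were measured, with a median difference between the co-cultures of 0.08 and a range of 0.02 for Rpl4 to 0.35 for Rpl17. Rpl3 and Rpl8, at the peptidyl transferase centre, differed by 0.03 and 0.05. At the paths of mRNA entry and exit, 5 members (Rps3, Rps14, Rps26, Rps28 and Rpsa) had a median of 0.06. At the decoding site the 4 members ran from -0.26 in Rps18 to 0.74 in Rps15, which is most of the range found over all members. None of the members in these groups passed in any of the 3 comparisons.

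None of the remaining paralogs passed in any comparison either. Rps27l, a paralog of Rps27 induced by p53, had 9.71 and 9.67 in neutrophil co-cultures, 9.59 and 9.59 in B-cell co-cultures and 9.74 and 9.77 alone. Rpl7l1, related to Rpl7, had 9.54 and 9.61 in neutrophil co-cultures, 9.56 and 9.20 in B-cell co-cultures and 9.37 and 9.10 alone, a difference of 0.34 ± 0.14 between neutrophil co-culture and culture alone with a limma adjusted p of 0.263. Rpl3l, the form of Rpl3 used in striated muscle, had 7.13 and 7.35 in neutrophil co-cultures, 7.13 and 6.99 in B-cell co-cultures and 7.19 and 7.31 alone. Rps4l, a copy of Rps4x, had 7.09 and 6.90 in neutrophil co-cultures, 6.98 and 6.72 in B-cell co-cultures and 6.91 and 6.85 alone. Rpl39 itself had 9.87 and 9.84 in neutrophil co-cultures, 9.87 and 9.78 in B-cell co-cultures and 9.78 and 9.73 alone.

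Probe sets of the same gene often disagreed in signal. Of the 69 genes, 25 had several probe sets, and in 22 of these the brightest and the dimmest were more than 1 log2 unit apart, in 19 more than 3. Rps26 was the widest, with a brightest probe set of 13.23 and 13.29 in neutrophil co-cultures, 13.15 and 13.28 in B-cell co-cultures and 13.34 and 13.22 alone. Its dimmest had 6.88 and 6.75 in neutrophil co-cultures, 6.07 and 6.10 in B-cell co-cultures and 6.42 and 6.14 alone. The difference between the co-cultures was 0.04 by the bright and 0.73 by the dim Rps26 probe set (adjusted p of 0.799 and 0.113 in limma over all probe sets).

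Over the 22 genes, the median difference of neutrophil from B-cell co-culture was 0.08 by the brightest and 0.20 by the dimmest probe set, with opposite signs in 5 genes. For neutrophil co-culture against culture alone the medians were -0.02 and 0.08, with opposite signs in 9, and for B-cell co-culture against culture alone they were -0.11 and -0.04, with opposite signs in 7. The dimmest probe set was above the brightest in 14, 17 and 13 of the 22 genes. What the dim probe sets detect was not tested.

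**Figure D5:**
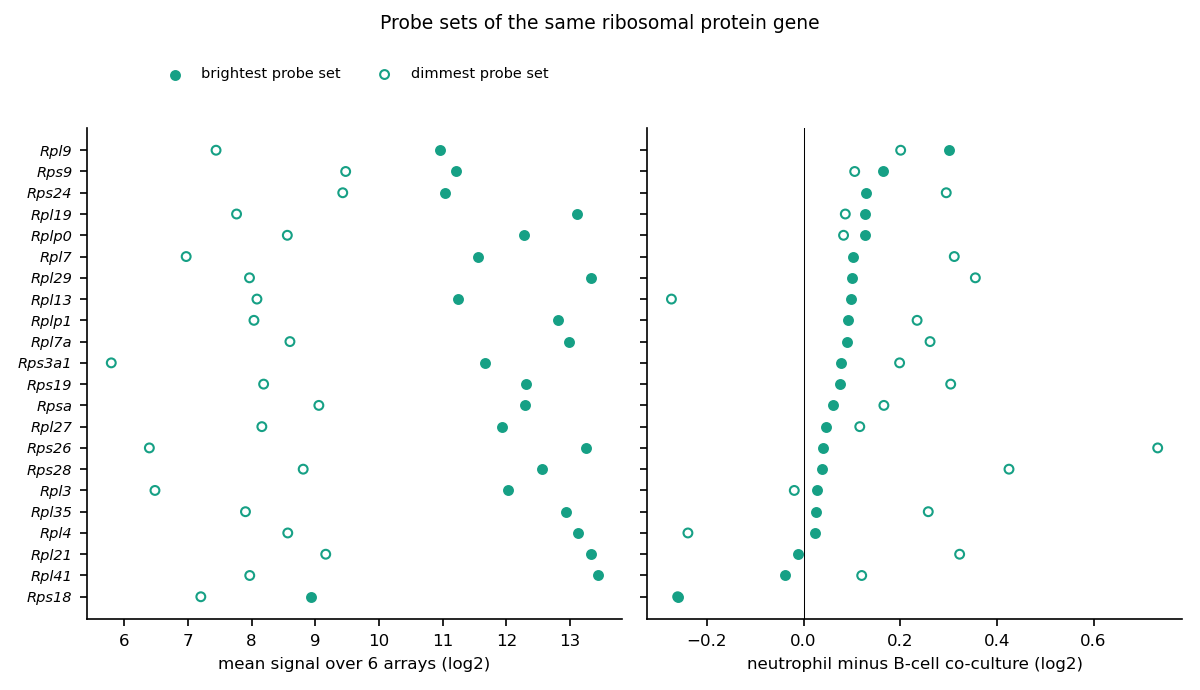
Brightest (filled) and dimmest (open) probe set of 22 ribosomal protein genes whose probe sets lie more than 1 log2 unit apart, with mean signal on the left and the difference of neutrophil from B-cell co-culture on the right. Filled points lie between -0.26 and 0.30, while the open points reach 0.73 in Rps26; the 2 points of Rps18 coincide on the right.

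Rps6, Rpl28, Rpl35, Rps27, Rplp2 and Rps18 in the windows above are among the 11 members with a TOP-like start. Most of the 11 had positive differences between the co-cultures. Their median difference was 0.05, with 9 of 11 positive and a range of -0.26 in Rps18 to 0.49 in Rps27, and that of the other 43 members with a window was 0.10, with 38 positive. Rps15 and Rps13, with the largest differences, have no run of 7 pyrimidines in the 30 bases shown. For neutrophil co-culture against culture alone the median was 0.0036 in the 11 and -0.01 in the 43, and for B-cell co-culture it was -0.09 in both. These medians are descriptions, since the groups also differ in signal, with median levels of 11.70 and 9.67.

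Other genes of protein synthesis had 0 calls in every list and comparison. Between neutrophil and B-cell co-culture, 4 of 6 elongation factors were positive with a median of 0.05, where Eef1g was the highest at 0.18 and Eef2, which moves the ribosome along the mRNA, the lowest at -0.04. All 23 initiation factors measured were positive, with a median of 0.15, between 0.02 in Eif4b, the helper of the RNA helicase Eif4a, and 0.29 in Eif5b, which joins the subunits. Among other genes with a signal of 11 and over, which is where the list mean lies, 825 of 900 were positive in that comparison. Of 15 mRNAs with TOP tracts outside the members, 12 were positive with a median of 0.08, and Tpt1 was the lowest at -0.14. This list shares genes with the others, among them Eef1g, Eef2 and Eif4b above and Npm1 below. The lists are thus not independent of each other. Fau, a ribosomal protein gene outside the symbol rule, had a difference of 0.05.

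The next lists hold genes that make ribosomes, that act in the mTORC1 path to translation or that respond to stalled ribosomes. Their medians in that comparison were larger than that of the 69 ribosomal protein members of all signals (0.10), a contrast that was not tested. They were not larger throughout at like signal. Signals of these lists averaged between 9.45 and 10.43 on the arrays, and 4429 of 4626 other genes of 9 to 11 were positive. The median of these other genes was 0.16, as was that of the 12 members of 9 to 11. The medians of the lists below, between 0.11 and 0.17, lay on both sides of that value. All 59 ribosome assembly factors were positive, with a median of 0.16, between 0.02 in the nucleolar chaperone Npm1 and 0.35 in the kinase Riok1. All 17 genes of RNA polymerase I were positive with a median of 0.16, between 0.04 in Polr2e and 0.42 in Znrd1. All 14 genes of the mTORC1 path to translation were positive with a median of 0.11, between 0.04 in Myc and 0.37 in Ddit4, an inhibitor of mTORC1. The 9 genes of the response to stalled ribosomes were positive with a median of 0.17, between 0.08 in Gcn1 and 0.23 in the sensor Zfp598.

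Proteins of the mitochondrial ribosome, which are also encoded in the nucleus, gave 70 of 71 positive differences between the co-cultures, with a median of 0.20, between -0.07 in Mrps18c and 0.49 in Mrpl54. The list mean lay between 9.11 and 9.41 on the arrays, and 4429 of 4626 other genes of 9 to 11 were positive. Against culture alone, their median was 0.12 with neutrophils, with 67 positive, and -0.05 with B cells, with 23 positive. Other genes of 9 to 11 had medians of 0.1362 with neutrophils, with 4298 of 4626 positive, and -0.0255 with B cells, with 1756 positive. The corresponding medians of all cytosolic members, many of them brighter, were 0.0036 and -0.10. Those of the 12 cytosolic members of 9 to 11 were 0.0429 and -0.1029. The difference between the families was not tested, and 0 mitochondrial genes passed the threshold.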

How the data were processed

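The deposited table holds log2 expression values per probe set for 6 Affymetrix arrays, which the authors computed with RMA, according to the submitters' processing notes; the log2 scale was taken from the values, which run from 3.04 to 14.03. The array model, software version and genome build are not given in the sources used here. RMA normalises between arrays, so a shift shared by most genes would not show. Of 41345 probe sets, 23521 were annotated to 1 gene, 1814 to several and 16010 were unnamed here; the last 2 classes were not used. Of the 23521, 23328 matched the RefSeq table of GRCm38.p6, with 0 symbol changes. The brightest probe set per gene left 22180 genes. All table columns were mapped to samples.

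Groups came from the co-culture label. limma 3.58.1 (R 4.3.3) fitted the mean of each culture over all 6 arrays (3 residual and 5.55 prior degrees of freedom), two-sided, Benjamini-Hochberg adjusted over all genes, with a threshold of 0.05. Differences are log2, the first-named culture minus the second. The test was checked on simulated data. Lists are given as counts and medians, with no test. Values on every array are given for the 3 highest and 3 lowest members per comparison, the 3 brightest and 3 dimmest, the P stalk, the 5S particle and the paralogs, and, by choice after values were seen, for Rps27 and the further probe sets of Rps18, Rps20 and Rps26; genes outside the members are the highest and lowest of each list. Members, lists and rules were chosen with earlier results of these data known. Start windows are RefSeq sequence. Alternatives were a filter on dim genes, trended robust moderation, quantile normalisation, median centring, other probe sets, 4 arrays, a replicate block, a receptor covariate, other membership and leaving out each array. Tables and figures used Python 3.11.15 and matplotlib 3.10.9.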

Additional observations from a re-analysis of the deposited data

How the results depend on the processing

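The count of members changed between neutrophil and B-cell co-culture was 0 under every alternative except leaving out arrays, where it ran from 0 to 14, the 14 coming without B-cell replicate 1, where 24.6% of all genes passed; 8 of the genes named with values passed there (Rps15, Rps20, Rpl9, Rps7, Rpl39l, Rps18, Rpl22l1 and Rps23rg1). Against culture alone the count for neutrophils was 0 under all but the dimmest probe set of each gene (chosen after seeing the data), which gave 1, Rps20 at an adjusted p of 0.0329 in limma; for B cells it was 0 under all. An adjusted p below 0.1 added 0 calls. The median over members between the co-cultures ran from 0.0665 to 0.149 over the arrays left out, was 0.0264 with quantile normalisation, 0.168 with median centring and 0.00683 under the receptor covariate. For neutrophils against culture alone it ran from -0.0134 to 0.0146 over the arrays left out and was -0.0949 with that covariate and 0.0424 after median centring, so its sign is not settled; for B cells it was negative under all, from -0.161 to -0.058 over the arrays left out. The gap of large minus small subunit between the co-cultures was 0.0185 with quantile normalisation, -0.0323 with the mean of probe sets and 0.0254 with the covariate, and ran from -0.0387 to -0.00125 over the arrays left out. For neutrophils against culture alone it was 0.0868, 0.00916 and 0.0799 under those 3 settings and -0.000554 with the dimmest probe sets, and ran from -0.00207 to 0.0583 over the arrays left out. For B cells against culture alone it was 0.0546 without paralogs and binding proteins and 0.0509 with standard proteins only, and ran from 0.0329 to 0.09. The cause of these shifts was not tested. Of the named-gene values, 1137 stayed on the same side of the threshold, and the genes that newly passed are named above. Direction was not always kept. Between the co-cultures, Rpl13 differed by 0.10 with its brightest probe set and by -0.27 with its dimmest. Replicate numbers did not pair the arrays: deviations of same-numbered arrays correlated at -0.15 for neutrophil and B-cell, 0.07 for neutrophil and alone and -0.07 for B-cell and alone cultures. A replicate block gave 0, 0 and 0 calls and medians of 0.102, 0.0036 and -0.0972, as without the block. The gap between bright members and other bright genes, added after seeing the data, was -0.0521 after quantile normalisation and -0.0594 with the dimmest probe sets for neutrophils against culture alone. Signals near the top or bottom of the scale can be compressed, which would limit what these arrays can show for the brightest and dimmest members. Compression was not tested.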
